A study of Mus musculus with 12 samples.

Results

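The genes described here belong to families of enzymes that write or erase acetyl and methyl groups on histone lysines. Membership was set by symbol, and a histone activity was not checked for each gene. They are the genes of the unstimulated CD8 T cell table whose symbols belong to the lysine demethylase (Kdm), lysine methyltransferase (Kmt2, Kmt5, Setd, Ezh, Dot1l, Ehmt, Suv39h, Nsd1), histone deacetylase (Hdac), sirtuin (Sirt) or lysine acetyltransferase (Kat) families. The pattern matched 63 symbols. Leaving out Kdm5c, Kdm5d and Kdm6a, as the rule does, gave 60 of the 11581 genes in the table. They fall into 14 demethylases, 23 methyltransferases and other SET domain proteins, 9 deacetylases, 7 sirtuins and 7 acetyltransferases. Genes of these families such as Hdac9, Hdac11, Suv39h2 and Kdm4d were not analysed here.

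The series compared CD8 T cells with and without scurfy, a mutation that inactivates Foxp3, the forkhead transcription factor of regulatory T cells. It has 12 samples in 4 groups of 3, and the 6 unstimulated samples were compared here. The 3 scurfy samples were CD8 T cells of CD45.2+ C57BL/6 J hosts that had received marrow of OT-1 Foxp3Scurfy CD45.1+/2+ donors together with marrow of CD45.2+ donors. The 3 wild-type samples came from the same kind of chimera, with OT-1 Foxp3wt in place of OT-1 Foxp3Scurfy marrow. OT-1 is a transgenic T cell receptor for the ovalbumin peptide SIINFEKL, so both groups carried it, and neither group had been given the peptide. Both groups were taken 2 months after reconstitution. The labels call the cells highly purified, but do not say whether the cells of the CD45.2+ donors, present in both chimeras, were sorted away, or whether each library is 1 mouse or a pool. The p-values therefore measure the spread between these libraries, which may be technical. The table gives no value for Foxp3, so the genotype labels were not checked by it.

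Acetylation of histone tails by lysine acetyltransferases loosens chromatin and is read by bromodomain proteins, and deacetylases and sirtuins remove it. Methylation acts by position: it marks active promoters and enhancers on lysine 4 of histone H3 (H3K4), transcribed gene bodies on H3K36, and silenced chromatin on H3K9 and H3K27. In CD8 T cells these enzymes are known for keeping the genes of effector and memory cells closed in resting cells and for opening them after antigen.

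The libraries held 8852518 to 23149523 reads in the table, wild-type library 2 being the deepest. The CD8 identity list was detected whole, with all 11 genes measured and Cd8b1, a chain of the CD8 coreceptor, at 21570 ± 300.4 normalized counts in scurfy libraries and 21500 ± 203 in wild type (SD, n = 3). In that list 1 gene was called, Cd3d, a chain of the CD3 complex, which rose by 0.76 on the log2 scale (adjusted p = 0.00551). Among markers of other cells, 5 of 12 B cell genes had a value, and their summed level was 157 to 173 in scurfy and 290 to 355 in wild-type libraries. Most of that sum was Cd79b (adjusted p = 0.576), and the called gene was the class II gene H2-Aa, at 15.7, 0 and 4.73 in scurfy and 57.2, 84.1 and 73.9 in wild type (adjusted p = 0.0164). The defining B cell genes Ms4a1 and Cd79a were not analysed here. The 2 measured myeloid genes of a list of 11 summed to 1472 to 1630 in scurfy and 891 to 1210 in wild type, Cst3 being called higher (adjusted p = 0.0202). The single measured erythroid gene of 7, Car2, was at 101 to 156 in scurfy and 231.5 to 315 in wild type, and was called lower (adjusted p = 0.0139). The part of these cells in the enzyme values was not tested. In bulk RNA, fewer cells of a type and less RNA per cell cannot be told apart.

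Most histone-modifying enzymes had small measured differences in transcript level between resting scurfy and wild-type CD8 T cells. The acetyltransferase gene Kat2b and the H3K4 demethylase gene Kdm1b were lower in scurfy cells, and no enzyme gene was called higher. In the limma test across all genes, 2 of the 60 enzymes (3.33%) passed an adjusted p of 0.05, against 4.47% of all genes tested. Of all genes 2.12% were called higher and 2.35% lower. The enzyme share is thus near the share of all genes. Fold changes were given as log2 of scurfy over wild type on normalized counts plus 1. They were positive for 30 enzymes and negative for 30, with a median of 0.00 against 0.01 over all genes. The median size of the change, regardless of sign, was 0.20 against 0.25 for all genes. The log2 fold change lay within 0.5 of 0 for 53 enzymes (88.3%) against 77.9% of all genes.

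The enzymes were also measured more tightly than the average gene, with a median standard error of 0.16 log2 units against 0.20. Their mean level ran from 20.6 normalized counts for Kdm8 to 5839 for Kmt2a, with a median of 414.6 against 246.8 over all genes, and no enzyme was at 0 in any library. Normalized counts rank genes by reads and are not corrected for transcript length. Whether reads per molecule depend on length in these oligo-dT primed libraries was not tested. The 95% confidence interval of the log2 fold change lay wholly between -1 and 1 for 52 of the 60 enzymes, and for 67.9% of all genes. For the other 8 enzymes a change of more than 1 log2 unit was within the interval at this depth. The 3 scurfy values lay all above or all below the 3 wild-type values for 19 enzymes (31.7%), 11 of them higher and 8 lower in scurfy, against 27.1% of all genes. The authors' deposited table called 5 of the 59 enzymes it tested, against 8.9% of all the genes it tested. In the authors' deposited table Kat2b and Kdm1b were lower, as here, and Setd1a, Ezh1 and Kmt2b were higher. Its enzyme values are those of the DESeq2 alternative used below, so the authors' table and DESeq2 are not separate tests.

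**Figure D1:**
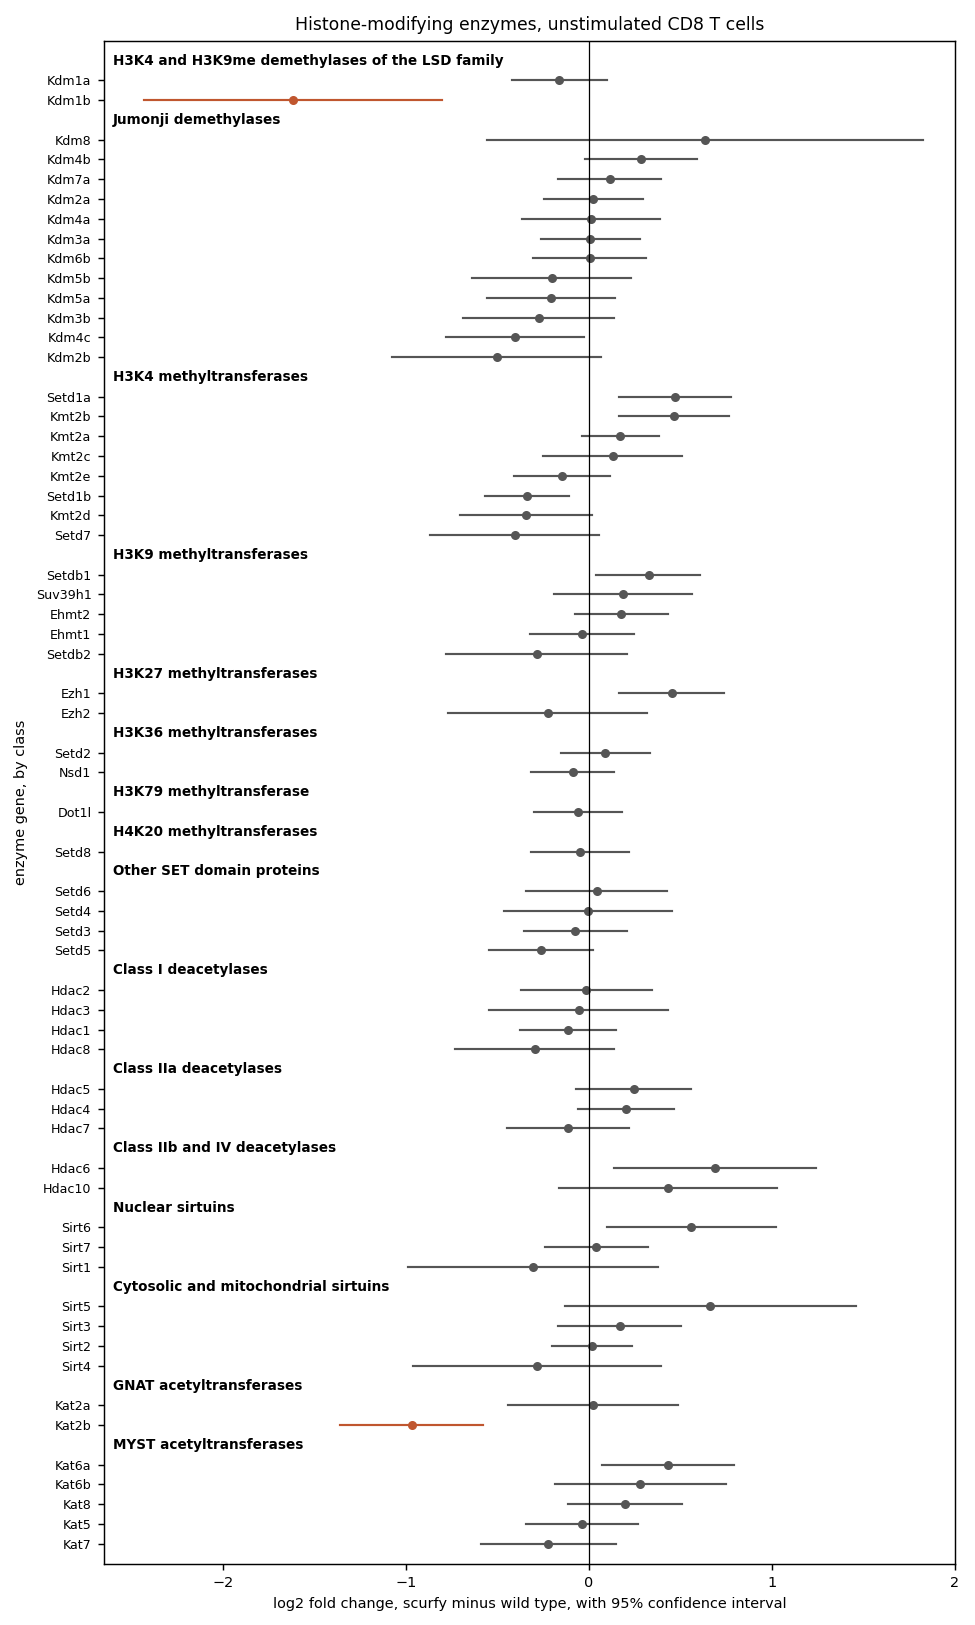
The log2 fold change of scurfy over wild type (horizontal axis) is plotted for each of the 60 enzyme genes, grouped by class, with its 95% confidence interval as a line. Most points lie within 0.5 of 0, and the 2 genes past the adjusted p of 0.05, Kat2b at -0.97 and Kdm1b at -1.62, lie to the left.

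Of the demethylases, the LSD family uses flavin to remove mono- and dimethyl marks, and both of its genes were measured. Kdm1b (ENSMUSG00000038080, chromosome 13), also called LSD2, is an H3K4 demethylase that works in gene bodies and sets DNA methylation imprints in oocytes. It was at 69.0, 62.2 and 22.5 normalized counts in the scurfy libraries and at 166, 108 and 164 in the wild-type libraries. The highest scurfy library was below the lowest wild-type library, and scurfy library 3 was the lowest of all. Kdm1b fell by 1.62 on the log2 scale (SE 0.38, 95% interval -2.43 to -0.80, adjusted p = 0.0282), or 3.07-fold. These values rest on 19 to 57 reads in the scurfy and 125 to 224 in the wild-type libraries. The call was lost without scurfy library 3 (log2 fold change -1.12, adjusted p = 0.0597), without wild-type library 1 (adjusted p = 0.0947), without wild-type library 2 (adjusted p = 0.0510) and without wild-type library 3 (adjusted p = 0.105). The exons of Kdm1b share 505 bases with Dek, a chromatin protein gene on the opposite strand. Dek was at 1549 ± 9.55 normalized counts in scurfy libraries and 1742 ± 456 in wild type (adjusted p = 0.68), and no source used here says whether reads were counted by strand.

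The second LSD gene, Kdm1a, encodes LSD1, the H3K4 demethylase of the CoREST corepressor complex, which also carries class I deacetylases. It was at 737, 736 and 846 normalized counts in scurfy libraries and 795, 882 and 917 in wild type. The groups overlapped, and the log2 fold change was -0.16 (95% interval -0.42 to 0.10, adjusted p = 0.479).

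Because Kdm1b and Kat2b are the enzyme genes whose transcripts passed the test, their start regions are shown. Each runs from 250 bases before to 50 after the annotated start (RefSeq, GRCm38.p6, plus strand), with CG dinucleotides in capitals.
Kdm1b chr13:47043249-47043548: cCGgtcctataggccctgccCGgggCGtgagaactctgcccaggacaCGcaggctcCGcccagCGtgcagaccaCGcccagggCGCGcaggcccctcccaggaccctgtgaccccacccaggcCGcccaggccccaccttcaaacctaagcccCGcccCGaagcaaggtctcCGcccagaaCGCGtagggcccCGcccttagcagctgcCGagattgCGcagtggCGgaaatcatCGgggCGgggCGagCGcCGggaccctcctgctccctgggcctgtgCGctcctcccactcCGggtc
Kat2b chr17:53566721-53567020: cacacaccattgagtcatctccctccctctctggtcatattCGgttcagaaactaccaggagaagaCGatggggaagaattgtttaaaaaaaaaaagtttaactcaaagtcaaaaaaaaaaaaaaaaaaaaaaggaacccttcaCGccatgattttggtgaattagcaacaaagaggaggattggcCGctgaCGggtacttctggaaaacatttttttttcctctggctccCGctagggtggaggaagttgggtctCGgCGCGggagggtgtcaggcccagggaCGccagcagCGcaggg

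The Kdm1b promoter is of the CpG island kind, with 26 CG dinucleotides and 72.3% G and C. The Kat2b promoter has 11 CG dinucleotides and 47% G and C, and a further annotated Kat2b start has 6. The 46 enzymes with a promoter in that table have 64 promoters, with a median of 25 CG dinucleotides against 7 over all 32851 promoters. Motifs were searched on both strands. The forkhead motif GTAAACA, of the family to which Foxp3 belongs, was in neither sequence above and in 2 enzyme promoters, those of Hdac7 and Kdm2b (3.12% against 3.65% of all promoters). The CCAAT motif was in the Kat2b but not the Kdm1b promoter, and in 39.1% of enzyme promoters against 37.4% of all. TATAAA was in 1 enzyme promoter, that of Hdac8, or 1.56% against 13.6% of all. The background is every annotated promoter and was not limited to genes measured in these cells. Whether these promoter traits are particular to the enzymes was not tested.

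The 12 Jumonji demethylases, which use iron and 2-oxoglutarate and can also remove trimethyl marks, gave no call in either direction, with log2 fold changes of -0.50 to 0.64 and a median of 0.01. The smallest p was that of Kdm4c, a demethylase of H3K9 and H3K36, at 332, 367 and 262 normalized counts in scurfy libraries and 508, 378 and 385 in wild type. All 3 scurfy values were below the wild-type ones, narrowly in the closest libraries, and the log2 fold change was -0.40 (SE 0.18, adjusted p = 0.205). Kdm7a, a demethylase of H3K9 and H3K27, had the highest count, at 1331 ± 167 in scurfy and 1231 ± 175 in wild type, a difference of 0.11 log2 units (adjusted p = 0.658). Kdm6b, the H3K27 demethylase also called JMJD3, was at 411 ± 21.1 and 410.1 ± 35.5, a log2 fold change of 0.005. The lowest count was that of Kdm8, at 30.3, 13.4 and 31.9 in scurfy and 7.98, 19.8 and 20.1 in wild type. Its interval of -0.56 to 1.83 log2 units leaves a large range of changes undetectable at this depth.

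Among the writers of methyl marks, none of the 23 genes was called, and the median log2 fold change was -0.04. The 8 genes classed by family as H3K4 methyltransferases held 3 of the 4 smallest p-values among enzymes not called, and these 3 differed in direction. Setd1a, a catalytic subunit of the SET1 complexes that place most promoter H3K4 trimethylation, was at 473.5, 449 and 492 normalized counts in scurfy libraries and 359, 311 and 350 in wild type. Kmt2b, a methyltransferase of the MLL family acting at CpG-rich promoters, was at 548, 589.5 and 584 in scurfy and 403, 472 and 377 in wild type. Setd1b, the alternative catalytic subunit to Setd1a, was at 1861, 1624 and 1688 in scurfy and 2351, 2146 and 2047 in wild type.

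The groups did not overlap for any of these 3 genes, Setd1a and Kmt2b being higher and Setd1b lower in scurfy. These genes were picked by their small p, which favours groups that do not overlap. The log2 fold change was 0.47 (SE 0.14, adjusted p = 0.0749) for Setd1a and 0.47 (SE 0.14, adjusted p = 0.0728) for Kmt2b. It was -0.34 (SE 0.11, adjusted p = 0.0844) for Setd1b. In the authors' deposited table Setd1a had a log2 fold change of 0.48 with an adjusted p of 0.038, and Kmt2b 0.46 with 0.0447. Setd1b had -0.34 with 0.054 in the authors' deposited table. With the trend of fold change on transcript length removed, Kmt2b passed the limma test (0.58, adjusted p = 0.0395), and Setd1a did not (0.56, adjusted p = 0.0561). With scaling by library size alone Setd1b passed as lower (-0.48, adjusted p = 0.0172). That scaling gave 0.335 for Setd1a (adjusted p = 0.18) and 0.33 for Kmt2b (adjusted p = 0.175). Removing the length trend gave -0.21 for Setd1b (adjusted p = 0.298). With single libraries left out, the adjusted p reached 0.203 for Setd1a, 0.2 for Kmt2b and 0.238 for Setd1b. Setd1a shares 3523 exonic bases with Gm49388, an overlapping gene model on the same strand, so its count is uncertain.

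Kmt2a, or MLL1, known for maintaining memory in helper T cells, had the highest count of all 60 enzymes, at 6186, 5843 and 6539 normalized counts in scurfy libraries and 5393, 5452 and 5619 in wild type. Every scurfy value was above every wild-type value, and the log2 fold change was 0.17 (SE 0.10, adjusted p = 0.331). Kmt2d, a writer of enhancer H3K4 monomethylation, was at 570 ± 60.8 in scurfy and 738 ± 196 in wild type (-0.35, adjusted p = 0.259), wild-type library 3 being the highest at 963.5. Its partner in that role, Kmt2c, had scurfy library 3 as its highest at 1283 and overlapping groups (0.13, adjusted p = 0.716).

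The H3K27 methyltransferases are the alternative catalytic subunits of Polycomb repressive complex 2 (PRC2), Ezh2 of dividing and Ezh1 of resting cells. Ezh1 was at 1253, 1176 and 1108 normalized counts in scurfy libraries and 707, 909 and 989 in wild type. The groups did not overlap, and the log2 fold change was 0.45 (SE 0.13, 95% interval 0.17 to 0.74, adjusted p = 0.0687), the smallest p among enzymes not called. It passed with the length trend removed (0.55, adjusted p = 0.0417), and in the authors' deposited table it was 0.44 with an adjusted p of 0.0411. Under scaling by library size alone Ezh1 was at 0.32 (adjusted p = 0.209). Without wild-type library 1 its adjusted p was 0.202. Ezh2 was at 111, 168 and 212 in scurfy and 198, 223 and 144 in wild type. Its groups overlapped, with a log2 fold change of -0.23 (95% interval -0.77 to 0.32, adjusted p = 0.651).

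The 5 measured H3K9 methyltransferases had a median of 0.18 and no limma call. Without scurfy library 3 that median was -0.01, and under scaling by library size alone 0.04. Setdb1, known for silencing retroelements, was at 555, 648 and 652 normalized counts in scurfy libraries and 471, 487 and 520 in wild type. The groups did not overlap (log2 fold change 0.33, SE 0.13, adjusted p = 0.173). Ehmt2, or G9a, had the highest count, at 1169 ± 28.4 and 1039 ± 131 (0.18, adjusted p = 0.421), and Setdb2 the least, at 129 ± 19.6 and 158 ± 31.7 (-0.28, adjusted p = 0.514). Suv39h1, which silences memory genes in effector CD8 T cells, was at 437 ± 113 and 376 ± 22.7 (0.19, adjusted p = 0.585).

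The writers of the remaining marks had small differences. The H3K36 methyltransferases Setd2 and Nsd1 had log2 fold changes of 0.09 and -0.09. The only H3K79 methyltransferase, Dot1l, was at 1104 ± 82.0 and 1151 ± 68.3 (-0.06, 95% interval -0.30 to 0.18). Setd8, the H4K20 monomethyltransferase now named Kmt5a, was at 1050 ± 87.2 and 1090 ± 148 (-0.05, 95% interval -0.32 to 0.22). Of the 4 other SET domain proteins, Setd5 had the smallest p, at 523, 497 and 502 in scurfy and 586, 563 and 681 in wild type (-0.26, adjusted p = 0.276), with no overlap between the groups.

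**Figure D2:**
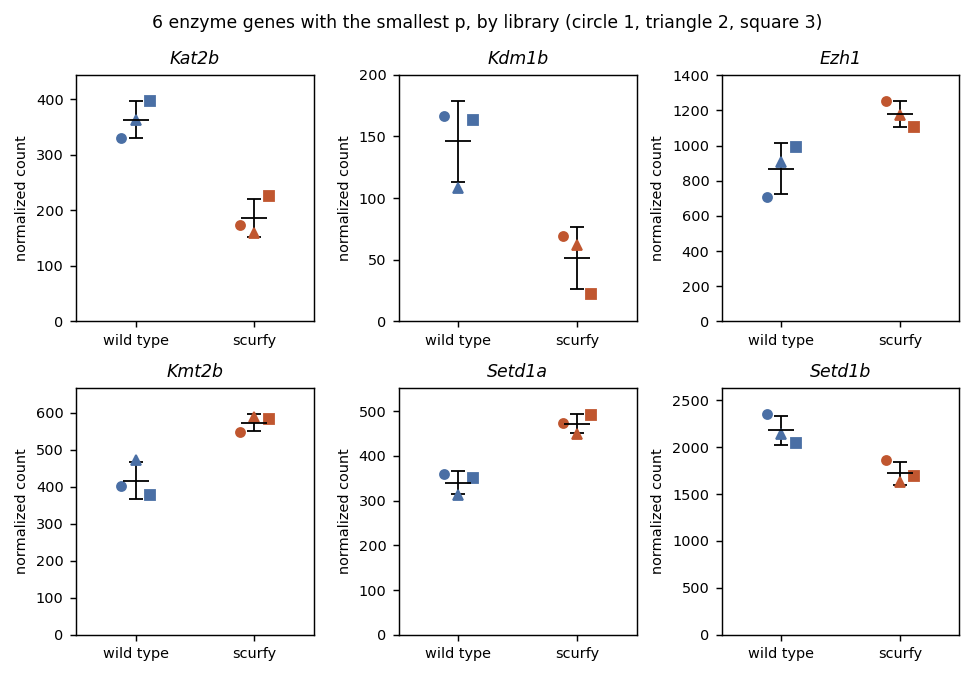
Normalized counts of the 6 enzyme genes with the smallest p (vertical axis, starting at 0) are shown for each library of the wild-type and scurfy groups, with the mean and SD of 3 libraries. The groups do not overlap for any of the 6, as for 27.1% of all genes, and picking by smallest p favours this. Kat2b, Kdm1b and Setd1b are lower and Ezh1, Kmt2b and Setd1a higher in scurfy. Of the 6, only Kat2b and Kdm1b passed the adjusted p.

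Of the erasers of acetyl groups, none of the 9 zinc-dependent deacetylases was called, and their median log2 fold change was -0.01. The 4 class I genes, the catalytic subunits of the main nuclear corepressor complexes, had log2 fold changes of -0.30 to -0.01 with a median of -0.09, and none was called. The median ran from -0.23 without scurfy library 3 to 0.015 without scurfy library 1. The sign of Hdac2 turned with the length trend removed (0.02) and without scurfy library 1 or wild-type library 2, and that of Hdac3 without any 1 of 4 libraries. Under scaling by library size alone the median of all genes itself was -0.13, so values of that size depend on the scaling. Hdac1 was at 1021 ± 120 in scurfy and 1104 ± 92.4 in wild type (-0.12, adjusted p = 0.63). Hdac8 was at 171, 155 and 162 against 246, 180 and 180, with no overlap (-0.30, adjusted p = 0.426). Hdac3 had a log2 fold change of -0.06 and Hdac2 of -0.01.

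The class IIa deacetylases, which shuttle between cytoplasm and nucleus on T cell receptor signals, held Hdac7, the deacetylase with the highest count. It was at 2494, 2731 and 1637 normalized counts in scurfy libraries and 2324, 2368 and 2573 in wild type, scurfy library 3 being the lowest (-0.12, adjusted p = 0.713). Hdac4 was at 912 ± 47.6 and 794 ± 83.7 (0.20, adjusted p = 0.354), and Hdac5 at 1129 ± 155 and 957 ± 177 (0.25, adjusted p = 0.354).

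Hdac6, the class IIb deacetylase that acts mainly on tubulin in the cytoplasm, had the largest limma fold change among enzymes not called. It was at 214, 212 and 188 normalized counts in scurfy libraries and 81.1, 151 and 164 in wild type. No values of the groups overlapped, wild-type library 1 was far below the others, and the log2 fold change was 0.69 (SE 0.26, 95% interval 0.14 to 1.24, adjusted p = 0.138). Without wild-type library 1 the log2 fold change of Hdac6 was 0.37 (adjusted p = 0.356). Hdac10 was at 95.7, 192 and 187 in scurfy and 130, 97.6 and 108 in wild type, with overlapping groups (0.43, adjusted p = 0.394).

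The sirtuins, deacylases that consume NAD, gave no call among 7 genes and a median of 0.04. Sirt6, a nuclear H3K9 deacetylase that restrains glycolytic genes, was at 153, 148 and 157 normalized counts in scurfy libraries and 99.7, 107 and 102 in wild type. The libraries of each group were close together and the groups well apart, but the test moderates the spread across genes of like level, and the log2 fold change of 0.56 (SE 0.22, 95% interval 0.10 to 1.02) had an adjusted p of 0.149. Sirt1 was at 201, 104 and 73.3 in scurfy and 116, 144 and 174 in wild type. Its scurfy libraries spanned the wild-type ones (log2 fold change -0.30, 95% interval -0.99 to 0.38, adjusted p = 0.623). Sirt7, the nucleolar sirtuin with the highest count, was at 2257 ± 384 and 2180 ± 243 (0.04, adjusted p = 0.892).

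Of the sirtuins outside the nucleus, the mitochondrial Sirt5 had the smallest p, at 136, 102 and 163 in scurfy and 39.9, 111 and 127 in wild type. The groups overlapped (0.66, 95% interval -0.13 to 1.46, adjusted p = 0.325). The mainly cytosolic Sirt2 was at 1753 ± 85.8 and 1734 ± 77.3, with an interval of -0.20 to 0.24 log2 units. Sirt4 had the lowest count, at 54.5 ± 11.7 and 66.3 ± 12.8 (-0.28, adjusted p = 0.652).

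Among the acetyltransferases, the 2 GNAT enzymes Kat2a (GCN5) and Kat2b (PCAF) are alternative catalytic subunits of the SAGA and ATAC coactivator complexes and place H3K9 acetylation. Kat2b (ENSMUSG00000000708, chromosome 17) was at 174, 160 and 226 normalized counts in scurfy libraries and 331, 362 and 397 in wild type. All scurfy libraries were well below all wild-type libraries. Kat2b fell by 0.97 on the log2 scale (SE 0.18, 95% interval -1.36 to -0.58, adjusted p = 0.0128), or 1.96-fold, on 131 to 191 reads in scurfy and 249 to 750 in wild type. Leaving out single libraries kept the call in 5 of 6 cases, and without wild-type library 3 the log2 fold change was -0.90 (adjusted p = 0.0571). Kat2a was at 316, 182 and 304 in scurfy and 296, 234 and 239 in wild type, with overlapping groups and a log2 fold change of 0.02 (95% interval -0.44 to 0.49, adjusted p = 0.966).

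The 5 MYST acetyltransferases gave no call and had a median of 0.20. Kat6a, or MOZ, was at 369, 404 and 547 normalized counts in scurfy libraries and 332, 317 and 316 in wild type. The groups did not overlap, scurfy library 3 being the highest (log2 fold change 0.43, SE 0.17, adjusted p = 0.154). Kat8, the main H4K16 acetyltransferase, was at 368, 359 and 370 against 320, 320 and 316 (0.20, adjusted p = 0.468). Kat5, or TIP60, which acetylates H4 and H2A, was at 472 ± 56.0 and 482 ± 20.4 (-0.04, adjusted p = 0.915). Kat6b had the lowest count, at 152 ± 8.63 and 126 ± 20.4 (0.28, adjusted p = 0.493).

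Some paralogous enzymes can replace each other in the same complex. The ratio of paralogs was taken within each library, where a scaling of the library cancels. Whether the genes of each pair can replace each other was not checked. The 14 pairs were chosen with the values known. With 3 libraries against 3, an exact two-sided permutation test cannot give a p below 0.1, so no pair could pass and the ratios are a description. Pairs with Kat2b, Kdm1b, Setd1a, Setd1b, Kmt2b or Setdb1 restate, at least in part, the differences of those genes. Of the 14 pairs, 6 did not overlap. No share for other gene pairs was taken, so this count cannot be set against a background. Among single genes, 27.1% of all genes did not overlap. The log2 ratio of Kat2b to Kat2a was -0.86, -0.19 and -0.43 in scurfy and 0.16, 0.63 and 0.73 in wild type, so it was negative in every scurfy and positive in every wild-type library. The log2 ratio of Setd1b to Setd1a was 1.87 ± 0.10 in scurfy and 2.68 ± 0.12 in wild type (SD, n = 3), a difference of -0.81. That of Kdm1b to Kdm1a was -3.42, -3.56 and -5.24 in scurfy and -2.26, -3.03 and -2.49 in wild type. Ehmt2 to Ehmt1 (difference 0.21), Kmt2b to Kmt2a (0.29) and Setdb2 to Setdb1 (-0.61) also did not overlap. Ezh2 to Ezh1 differed by -0.68 with overlapping groups. The ratios of Hdac2 to Hdac1 and Hdac5 to Hdac4 differed by 0.10 and 0.04.

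**Figure D3:**
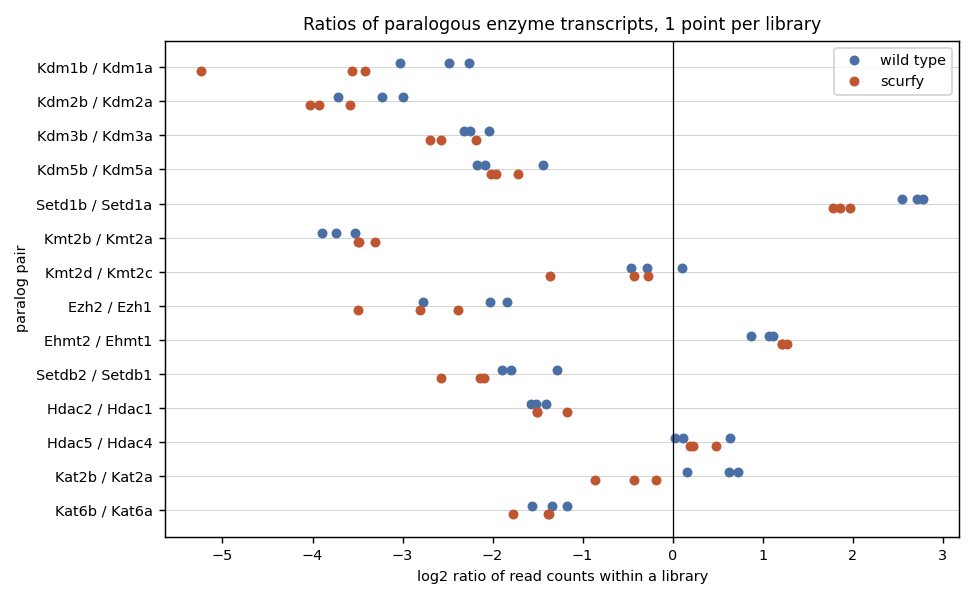
The log2 ratio of read counts of 2 paralogous enzyme genes within a library (horizontal axis) is plotted for 14 pairs, 1 point per library and the groups in different colours. For Kat2b / Kat2a, Kdm1b / Kdm1a and Setd1b / Setd1a all scurfy points lie to the left of all wild-type points, and for Hdac5 / Hdac4 they mix.

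Most of these enzymes act in complexes, and 87 partner subunits and related enzymes outside the symbol families were examined in 7 lists. Of them limma called 1 higher and 2 lower in scurfy, or 3.45% against 4.47% of all genes, and their median log2 fold change was -0.08 against 0.01 over all genes. Limma called none of the 9 PRC2 partners, 8 had negative values, against 48.9% of all genes, and their median of -0.50 was the lowest of the lists. Suz12, the scaffold of PRC2, was at 438, 431 and 277 normalized counts in scurfy libraries and 514, 544 and 752 in wild type. Every scurfy value was below every wild-type value (log2 fold change -0.67, adjusted p = 0.0655). In the authors' deposited table Suz12 was called lower (-0.66, adjusted p = 0.0213). Leaving out wild-type library 3 gave Suz12 a limma adjusted p of 0.221. Jarid2, which recruits PRC2, was at 254, 223 and 240 against 347, 303 and 365, with no overlap (-0.50, adjusted p = 0.0976). Rbbp4, a histone-binding subunit shared with deacetylase complexes, was at 1677, 1672 and 458 against 1833, 2212 and 2357, scurfy library 3 being far below the rest (-0.97, adjusted p = 0.419). With a mean of at least 50, which left out Phf19 (mean of 9.82 normalized counts), the median of the PRC2 partners was -0.41. Of the 8 partners left, 7 had negative values. Without scurfy library 3 the median of the PRC2 partners was -0.34, and with the length trend removed it was -0.38. Under scaling by library size alone it was -0.63 with 2 genes called lower.

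The calls lower were of methyltransferases outside the symbol families. Ash1l, an H3K36 methyltransferase, was at 644, 637 and 499 normalized counts in scurfy libraries and 730, 914 and 962 in wild type. It fell by 0.55 on the log2 scale (SE 0.15, adjusted p = 0.0478), kept in 1 of 6 fits that left out a library. Whsc1l1, now Nsd3, was at 1816, 2188 and 2013 against 2693, 2543 and 2638. It fell by 0.39 (adjusted p = 0.0481), a call kept in none of the 6. Neither passed with the length trend removed (adjusted p = 0.145 for Ash1l and 0.231 for Whsc1l1). Smyd2, another methyltransferase outside the symbol families, was called higher in the authors' deposited table (0.76, adjusted p = 0.044). Limma did not call Smyd2 (0.73, adjusted p = 0.0953).

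Of the 18 subunits of deacetylase corepressor complexes, 1 was called. Gps2, a subunit of the NCoR and SMRT complex that carries Hdac3, was at 2406, 2279 and 2088 normalized counts in scurfy libraries and 1700, 1715 and 1587 in wild type. All scurfy values were above all wild-type values. Gps2 rose by 0.43 on the log2 scale (SE 0.10, adjusted p = 0.0306), and the call was kept in 1 of 6 fits that left out a library. It was lost with the length trend removed (adjusted p = 0.0843) and under scaling by library size alone (0.30, adjusted p = 0.101).

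Limma called no gene of the other 4 lists. Under scaling by library size alone 3 acetyltransferase partners, 1 partner of the H3K4 methyltransferase complexes and 1 demethylase were called lower. Of the 10 partners of the H3K4 methyltransferase complexes, median -0.06, Rbbp5, a core subunit, had the smallest p, at 162, 188 and 200 in scurfy and 295, 244 and 274 in wild type (-0.56, adjusted p = 0.091). Of the 24 acetyltransferases and partners outside the families, median -0.06, Msl3, a subunit of the Kat8 complex, had the smallest p (-0.70, adjusted p = 0.0661). In the authors' deposited table Msl3 (adjusted p = 0.0242) and Ing3 (adjusted p = 0.0457), subunits of acetyltransferase complexes, were called lower. The coactivator acetyltransferase Ep300 was at 361, 371 and 320 against 374, 570 and 566.5 (-0.50, adjusted p = 0.119). Of the 8 arginine methyltransferases Prmt10 had the smallest p (-0.39, adjusted p = 0.231), and of the 8 other demethylases Jmjd1c had it (-0.52, adjusted p = 0.108). The 2 further H4K20 methyltransferases, listed under the older symbols Suv420h1 and Suv420h2, had log2 fold changes of -0.16 and 0.14, neither called (adjusted p = 0.476 and 0.647).

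**Figure D4:**
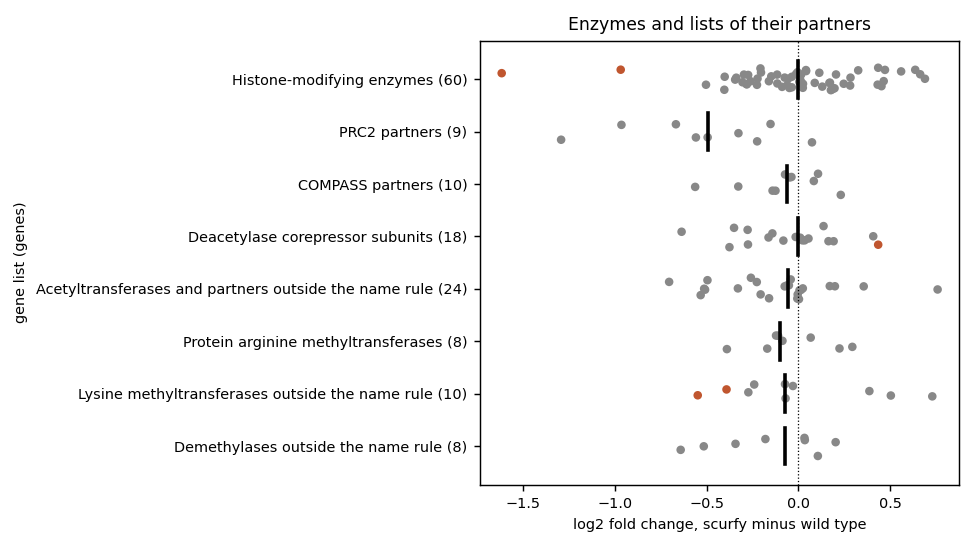
Log2 fold changes of scurfy over wild type (horizontal axis) are plotted for the 60 enzymes and for each of 7 lists of partner genes, 1 point per gene, with the median of each list. The list of PRC2 partners has the lowest median, -0.50, and the enzymes are centred on 0.00.

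The enzyme genes are long, with a median of 6064 exonic bases against 4075 over all genes, and fold changes in this comparison moved with length. In the tenth of genes with the shortest exons (median 555 bases) the median log2 fold change was 0.32, and in the tenth with the longest (median 11895 bases) it was -0.11. Of genes with over 4000 exonic bases, 0.527% were called higher and 3.11% lower. The 51 enzymes of that length had a median of -0.01 against -0.05 for all 5881 such genes, and the 9 shorter enzymes 0.04 against 0.09. With the length trend removed, the median of the enzymes was 0.06 against 0.02 over all genes, Kat2b and Kdm1b were still called lower (adjusted p = 0.0216 and 0.0431), and Ezh1 and Kmt2b were called higher. Why fold changes moved with length was not tested.

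**Figure D5:**
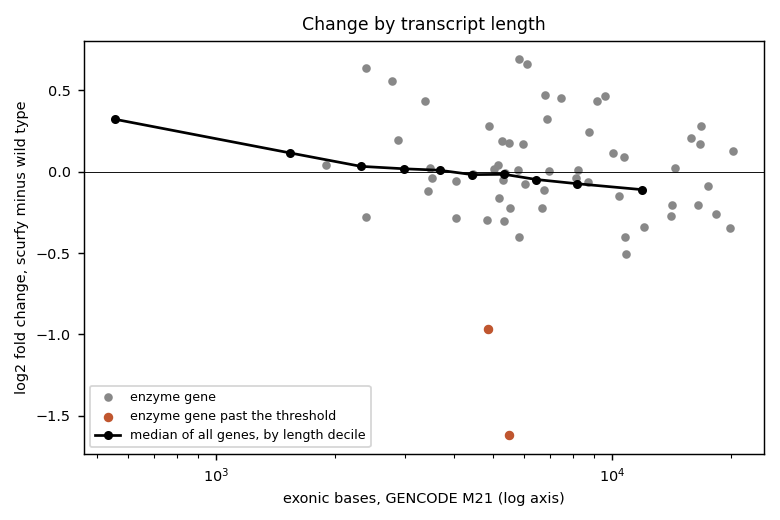
Each point is an enzyme gene, by its exonic bases (horizontal log axis) and its log2 fold change of scurfy over wild type (vertical axis), and the black line joins the medians of all genes in 10 length classes. The line falls from 0.32 to -0.11, and the called genes Kat2b and Kdm1b lie far below it.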

How the data were processed

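Polyadenylated RNA of purified CD8 T cells was copied into cDNA with indexed oligo-dT primers, amplified by in vitro transcription and sequenced on an Illumina NextSeq 500, per the labels' protocols. The submitters' processing notes name Trim Galore 0.4.4, STAR 2.6, featureCounts, edgeR, DESeq2 and the build NCBIM37, with no order or role.

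Each deposited value is a normalized signal, reads over the size factor of the library, as the values themselves and the file headers show. Dividing by the recovered step gave whole reads, within 0.01 read, for 100% of nonzero values. Beside these, per the file headers, it holds the authors' log2 fold change, its error, a test score, a raw p-value and an adjusted one, used only where the authors' table is named. The table for stimulated cells holds the same values under unstimulated names, so the stimulated libraries were not analysed here. The smallest mean in the table was 7.10, and no source used here states a rule for leaving genes out. At this depth 3 reads equal 1.45 to 3.99 normalized counts, a limit from counting error only.

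The values being normalized, limma 3.58.1 (R 4.3.3) was fitted to log2(value + 1) over all 11581 genes and 6 libraries, with a variance trend, robust moderation (4 residual and 10.7 prior degrees of freedom), no covariate and Benjamini-Hochberg adjustment at 0.05. The pseudocount draws fold changes of low genes toward 0, and as differences of mean logs they can lie above or below ratios of mean counts. Unless another source is named, p-values are those of limma. The script was tested on simulated data. Alternatives were a pseudocount of 5, a mean of at least 50, library size alone, a loess length trend (span 0.5) removed, a replicate block, each library left out, and edgeR 4.0.16, voom and DESeq2 1.42.0 on recovered reads. For the enzymes DESeq2 gave the same rounded log2 fold changes and adjusted p-values as the authors' deposited table, such as -0.963 and 0.00014 for Kat2b. Libraries of a group differed by 6.86 to 32.4 times the sampling variance, so none was a copy.

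Groups came from the sample titles. Exonic lengths and overlaps came from GENCODE M21, which 11571 gene IDs matched. Members, lists and pairs were chosen with earlier results of these data known. Named genes were those called and, per class, those with the smallest p or the highest or lowest mean, and per partner list those called or with the smallest p. Others were added after their values were seen. Setd8 was planned among other SET domain proteins and moved to its mark, H4K20, with the files in view.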

Additional observations from a re-analysis of the deposited data

How the results depend on the processing

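The count of enzymes called lower, 2, held under a pseudocount of 5, a mean of at least 50 (59 enzymes left), the length trend removed, edgeR, voom and DESeq2. It was 3 under library size alone, which added Setd1b, and 0 to 2 when single libraries were left out. The count called higher, 0, became 2 with the length trend removed and 3 with DESeq2, and was 0 to 0 over single libraries left out. The median of the enzymes moved from 0.00 to -0.14 under library size alone, where the median of all genes moved from 0.01 to -0.13. Over all genes, 518 were called (246 higher, 272 lower), 929 under library size alone (168 higher, 761 lower), 298 with the length trend removed, 891 with DESeq2 and 113 to 403 with single libraries left out. Over 14 alternatives, 827 outcomes of single enzymes kept their side of the threshold, 5 lost the call and 6 gained it. No called enzyme changed sign, but 58 outcomes of 23 enzymes not called did, the largest of these enzymes having a log2 fold change of 0.305 in size. Class medians moved by more than the spread between scurfy libraries in 22 of 224 outcomes. The cause of these shifts was not tested. Same-numbered libraries did not deviate together (correlations 0.009, -0.04 and -0.069), and with the replicate number as a block 372 genes, 2 enzymes lower and 0 higher were called, and the partner calls of Gps2 (adjusted p = 0.0516), Ash1l (0.072) and Whsc1l1 (0.0855) were lost. Enzymes under about 100 normalized counts, such as Kdm8, Sirt4 and the called Kdm1b (mean of 98.6), have wide intervals at this depth. Wild-type library 1 was the farthest from its group for 51.7% of enzymes (36.4% of all genes), and scurfy library 3 for 48.3% (42.8%).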
